A study of Homo sapiens with 12 samples.

Results

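The kinetochore is the protein assembly that couples each chromosome to the spindle in mitosis, and 43 genes of the centromere, the kinetochore and the spindle assembly checkpoint are described here. They were chosen by gene symbol, as a fixed list of subunits and regulators, from the 60612 named entries of the count table. All 43 symbols were found, and 42 of them were among the 11803 genes with enough reads to be tested. The exception was MAD1L1, which had 0 reads in every library.

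Transcript abundance was measured by 3′ RNA-seq in wild-type CAMA-1 cells, a human luminal breast cancer line positive for the oestrogen receptor (ER). The 4 groups were given vehicle (DMSO), 100 nM of abemaciclib, 5 nM of fulvestrant, or both drugs, for which the labels do not restate the doses. The 100 nM is that of the labels, and the study's methods give a higher default dose of abemaciclib, used unless otherwise noted. Abemaciclib inhibits the cyclin D-dependent kinases CDK4 and CDK6, and fulvestrant is a selective ER degrader. Each group held 3 biological replicates, and the study's methods give 5 days of treatment. All groups came from 1 cell line in the same medium, so that no group models normal tissue or another tumour.

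Expression is given as CPM, the reads of a gene per 1000000 reads of the library on scaled library sizes. Libraries held 3299119 to 5164667 reads. Reads were taken near the 3′ end of polyadenylated RNA, which makes a level depend little on transcript length. All 8 luminal epithelial markers examined, ESR1, GATA3, FOXA1, KRT8, KRT18, KRT19, EPCAM and CDH1, had reads, at mean levels of 70.8 to 3241 CPM. Of 10 markers of immune, fibroblast, endothelial and basal cells, 5 had no read in any library (CD3E, CD68, COL1A2, PDGFRB and PECAM1) and the highest was COL1A1 at 20.1 CPM. Their summed level was 14.8 to 18.8 CPM in DMSO, 20.01 to 26.5 in abemaciclib, 20.7 to 27.1 in fulvestrant and 16.5 to 22.6 in the combination. Of these 10 only COL1A1 had enough reads to be tested, and it was higher with abemaciclib (0.45, adjusted p 0.0313) and fulvestrant (0.48, adjusted p 0.0194). The luminal markers summed to 5625 to 5949 CPM in DMSO and 6631 to 7722 CPM over the drug libraries, with 3 of 8 higher and 1 lower with abemaciclib, 5 higher with fulvestrant, and 3 higher and 2 lower with both. Of all genes tested, 20.5%, 25.3% and 27.7% were called higher in the same comparisons with DMSO. Called lower were 20.7%, 25.7% and 27.5%. The part of either marker list in the results below was not tested. Fulvestrant replicate 3 stood furthest from its group, with a correlation of 0.970 across genes to replicate 2, and counts without it are given beside the comparisons it enters.

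Centromeres are marked by nucleosomes that carry the histone H3 variant CENP-A. The constitutive centromere-associated network (CCAN), a set of inner kinetochore complexes, binds these nucleosomes and carries the outer kinetochore, where the KMN network (KNL1, the MIS12 complex and the NDC80 complex) grips microtubules. Unattached kinetochores send a checkpoint signal that holds the anaphase-promoting complex inactive until every chromosome is attached. In cycling cells many of these genes are transcribed mainly in G2 and M phase, whereas other subunits are made throughout the cycle. In proliferating breast cancer cells the mitotic members are commonly read as proliferation genes. Fewer dividing cells and less RNA per cell cannot be told apart in bulk libraries such as these.

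Members were divided by hand into 13 constitutively expressed subunits and 30 cycle-dependent ones, from general knowledge of their expression. Earlier results of these data were known when this was done. The promoter sequences below are shown because members of both kinds sit side by side in the same protein assembly while their transcripts behaved differently. They run from 90 bases before to 10 bases after the RefSeq transcription start on GRCh38.p14, 5′ to 3′ on the strand of the gene. Capitals mark matches to the cell cycle genes homology region (CHR; TTTGAA or TTCGAA) or to an E2F-type motif (TTCCCGC or TTCGCGC or TTGCCGC or TTGGCGC), searched on both strands, so that TTCAAA and GCGGGAA are matches read from the other strand. They are examples, and matches did not follow the response gene by gene. The first 6 belong to genes that fell by more than 2-fold in every drug group, of which SPC24 holds no match in these 100 bases. The last 4 belong to genes that stayed within 2-fold of DMSO, of which CENPC holds a match and DSN1, NSL1 and MIS12 hold none. Of all members with a sequence, 11 of 26 that changed by more than 2-fold in some drug group held a match in this stretch, and 1 of 8 that did not.
CENPA, chr2:26785966-26786065 (+): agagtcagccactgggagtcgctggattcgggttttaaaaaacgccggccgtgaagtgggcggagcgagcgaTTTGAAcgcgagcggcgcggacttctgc
NDC80, chr18:2571467-2571566 (+): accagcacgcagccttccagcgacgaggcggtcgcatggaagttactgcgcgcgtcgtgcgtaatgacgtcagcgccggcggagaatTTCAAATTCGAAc
SPC25, chr2:168890421-168890520 (-): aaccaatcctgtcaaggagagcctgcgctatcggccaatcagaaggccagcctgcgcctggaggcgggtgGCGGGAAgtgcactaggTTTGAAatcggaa
SGO1, chr3:20186197-20186296 (-): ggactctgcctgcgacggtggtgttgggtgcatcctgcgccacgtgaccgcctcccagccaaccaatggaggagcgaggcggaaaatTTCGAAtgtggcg
BUB1B, chr15:40160979-40161078 (+): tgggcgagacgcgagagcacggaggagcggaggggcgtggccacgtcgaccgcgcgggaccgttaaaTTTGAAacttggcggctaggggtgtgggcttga
SPC24, chr19:11155773-11155872 (-): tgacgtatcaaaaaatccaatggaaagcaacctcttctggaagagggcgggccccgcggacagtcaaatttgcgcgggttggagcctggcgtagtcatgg
CENPC, chr4:67545494-67545593 (-): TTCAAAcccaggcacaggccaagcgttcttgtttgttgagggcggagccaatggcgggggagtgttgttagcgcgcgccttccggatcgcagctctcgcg
DSN1, chr20:36773754-36773853 (-): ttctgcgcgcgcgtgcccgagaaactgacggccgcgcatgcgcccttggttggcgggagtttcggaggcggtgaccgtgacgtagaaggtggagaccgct
NSL1, chr1:212791768-212791867 (-): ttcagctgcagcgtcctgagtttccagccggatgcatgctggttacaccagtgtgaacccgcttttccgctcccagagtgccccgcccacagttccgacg
MIS12, chr17:5486284-5486383 (+): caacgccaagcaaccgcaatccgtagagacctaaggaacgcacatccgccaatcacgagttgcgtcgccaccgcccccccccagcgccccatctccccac

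Over the whole RefSeq window of 250 bases before to 50 after the start, 35 of the 43 members had a sequence in the table used here. A CHR match was found in 19 of these 35 (54.3%), against 5336 of 27305 genes (19.5%) for windows of the same length. An E2F-type match was found in 14 (40.0%, against 15.3% of all genes), and CCAAT, read on either strand, in 24 (68.6%, against 39.7%). Among members whose transcripts later stayed within 2-fold of DMSO in every drug group, 2 of 8 held a CHR match (25.0%). Among the other members tested, 17 of 26 did (65.4%). E2F-type matches were found in 3 of 8 (37.5%) and 11 of 26 (42.3%) of the same sets. MIS12 and PMF1 of the MIS12 complex are among the 3, with E2F-type matches outside the stretch shown above. These shares describe letters in a window and were not tested.

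As a whole, the member transcripts fell in every drug group, in the order abemaciclib, fulvestrant, combination. Together they took 0.301 ± 0.0111% of all reads in DMSO (SD, n = 3), 0.117 ± 0.00376% under abemaciclib, 0.0808 ± 0.0013% under fulvestrant and 0.066 ± 0.00352% under both drugs. Against DMSO, abemaciclib lowered 37 of the 42 members tested, fulvestrant 39 and the combination 39, and none rose (quasi-likelihood test of edgeR, p under 0.05 after Benjamini-Hochberg adjustment over all genes tested). The background for these counts was the share of all genes called lower, which was 20.7%, 25.7% and 27.5%, and that called higher, 20.5%, 25.3% and 27.7%. No member was higher at an unadjusted p under 0.05 in any of these 3 comparisons, and DESeq2 also called 0 higher. DESeq2 did not call every fall, however. Those it left uncalled included CENPT with fulvestrant, and CENPT, NSL1, MIS12 and ZW10 with the combination. The median log2 fold change of the members was -1.32 with abemaciclib, -2.63 with fulvestrant and -3.86 with both, while the median over all genes tested was 0.00, 0.01 and 0.01. The 3 comparisons share the DMSO libraries, and without fulvestrant replicate 3 that drug lowered 37 members. Leaving out any 1 of the DMSO or combination libraries took the count for the combination from 39 to between 35 and 37, and the calls lost were those of NSL1, ZW10, MIS12 and CENPT. For 38 of the 43 members, every drug library lay below every DMSO library, as it did for 17.9% of all genes tested.

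**Figure D1:**
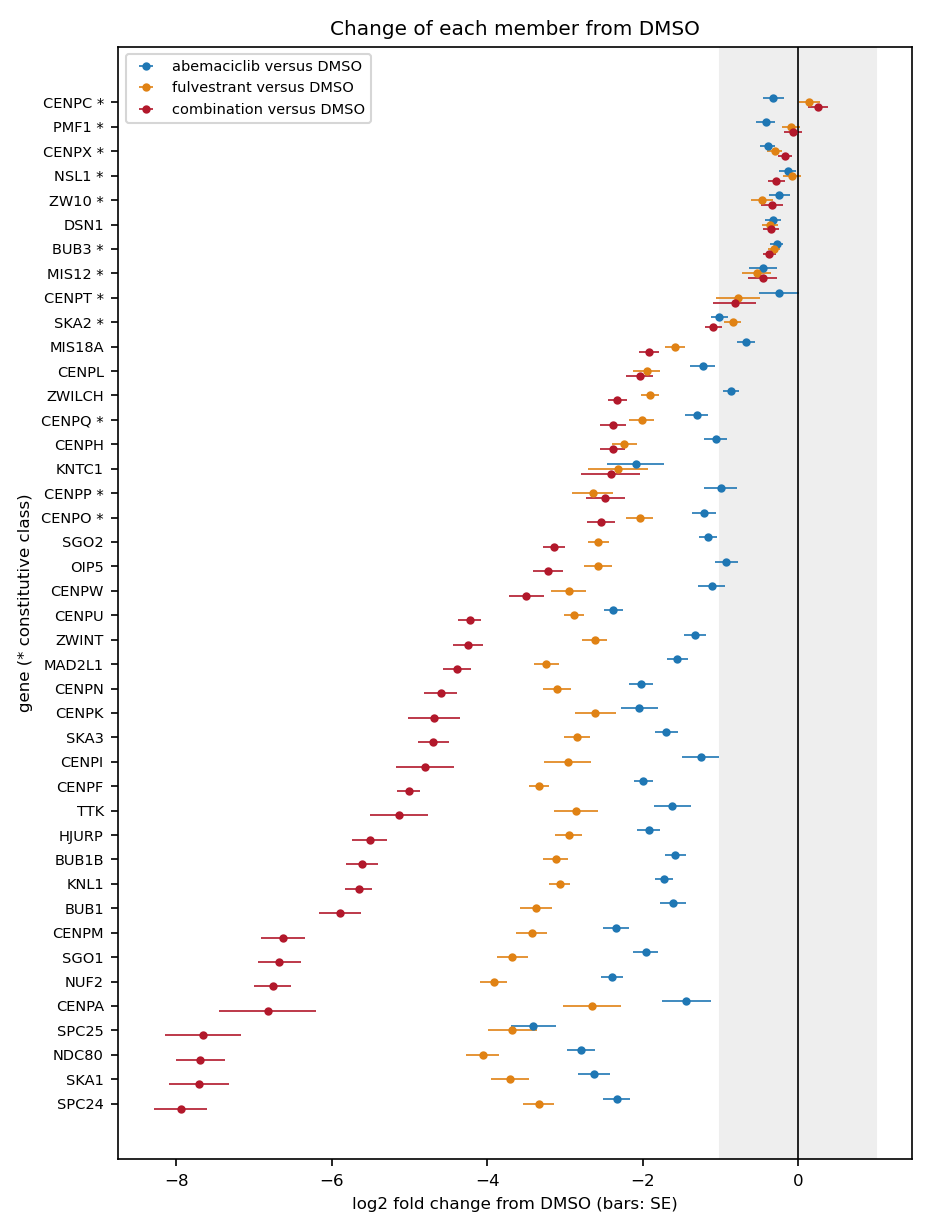
Log2 fold change from DMSO (x axis) of the 42 members tested (y axis, ordered by the combination), with bars for the SE of the fit; the grey band covers changes under 2-fold and asterisks mark the constitutive class. Most genes shift further left from abemaciclib to fulvestrant to the combination, with SPC24 at -7.94 in the combination, while 9 genes stay within the band in every drug group.

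The classes were drawn with earlier results of these data known, so the difference between them is a description and was not tested. All 30 cycle-dependent members fell with each treatment, with median log2 fold changes of -1.66, -2.95 and -4.75 with abemaciclib, fulvestrant and the combination. Of the 12 constitutive members tested, 7, 9 and 9 fell, and the medians were -0.40, -0.50 and -0.41, where 20.7%, 25.7% and 27.5% of all genes were called lower. Group means descended from DMSO through abemaciclib and fulvestrant to the combination in 29 of 30 cycle-dependent members but in 4 of 13 constitutive ones. Over all members this order held for 33 of 43, against 13.2% of all genes tested.

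The hand division and the data did not coincide everywhere. Within 2-fold of DMSO in all 3 drug groups were 9 members: CENPC, CENPT and CENPX of the CCAN, DSN1, NSL1, PMF1 and MIS12 of the MIS12 complex, ZW10 of the RZZ complex, and the checkpoint protein gene BUB3. DSN1 was the single member of these 9 that had been placed among the cycle-dependent genes. Conversely CENPO, CENPP, CENPQ and SKA2, placed in the constitutive class, fell by more than 2-fold in at least 1 drug group. Since these 9 members were picked by their size of change, their levels are a description. Their share of all member reads was 17.9 ± 0.604% in DMSO (SD, n = 3), 35.6 ± 0.852% under abemaciclib, 53.5 ± 0.635% under fulvestrant and 68.5 ± 1.30% under both drugs.

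**Figure D2:**
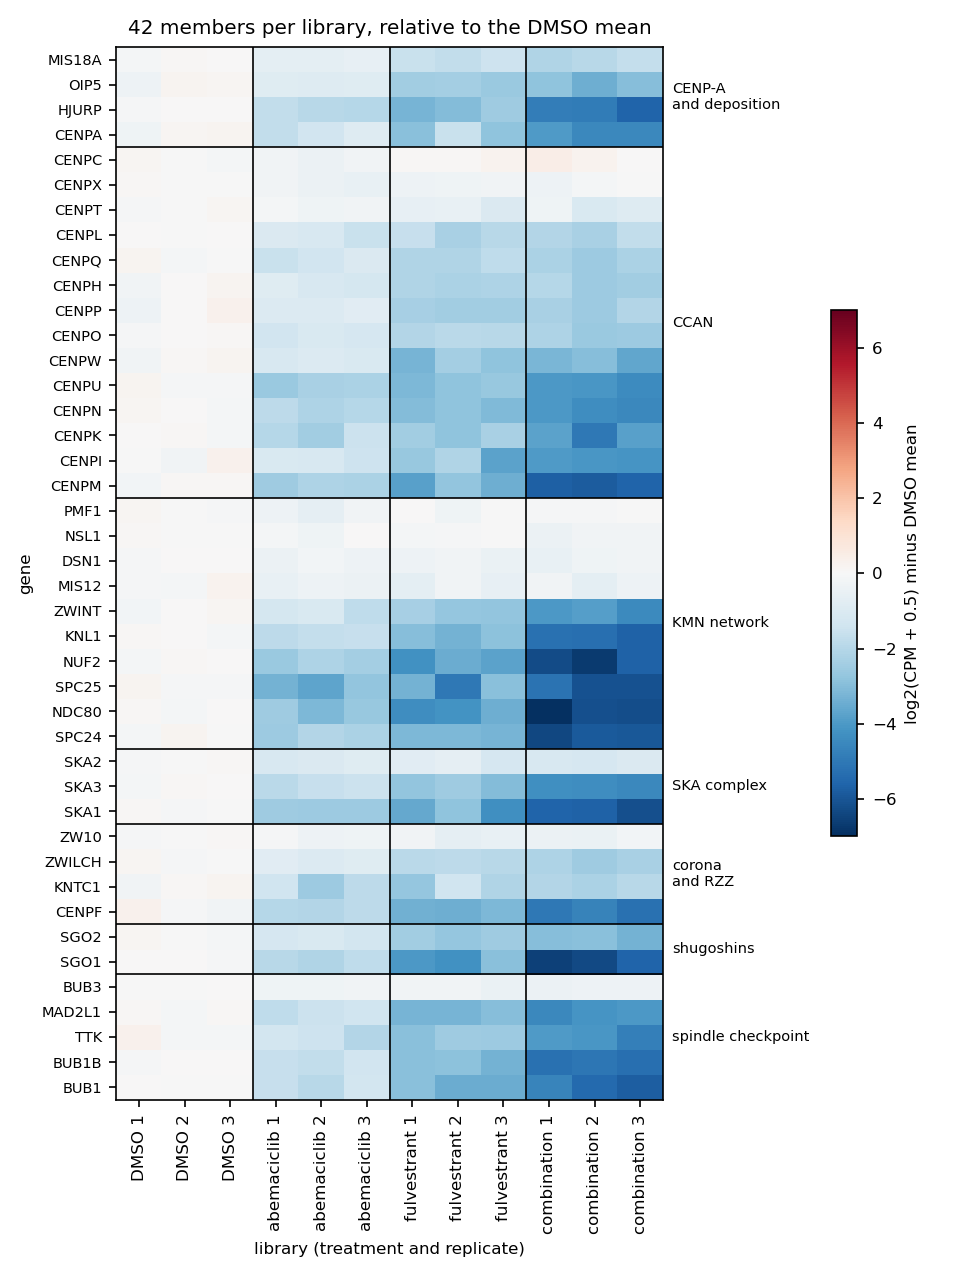
Log2(CPM + 0.5) of the 42 members tested (y axis, grouped by assembly) in each of the 12 libraries (x axis), minus the mean of the 3 DMSO libraries; blue is lower and red is higher than DMSO. The NDC80 subunits NDC80, NUF2, SPC24 and SPC25, with SGO1, SKA1 and CENPM, are among the darkest in the combination, and the rows of CENPC, CENPX, the 4 MIS12 complex genes, ZW10 and BUB3 stay pale.

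At the base of the assembly, all 4 members that make up or deposit the CENP-A nucleosome fell in each drug group. Of all genes tested, 20.7%, 25.7% and 27.5% were called lower with abemaciclib, fulvestrant and the combination. CENPA encodes the centromeric histone itself. It measured 8.61, 12.2 and 12.4 CPM in the DMSO libraries, 3.00, 3.97 and 5.56 in abemaciclib, 0.988, 3.38 and 1.14 in fulvestrant and 0.241, 0 and 0 in the combination, where a single read remained over the 3 libraries against 153 in DMSO. From those counts the combination was 161-fold lower with a 95% exact counting interval of 28.4 to 6386, which covers counting error only. All drug libraries lay below all DMSO libraries, and the log2 fold changes were -1.44 ± 0.31 (SE) with abemaciclib and -2.65 ± 0.37 with fulvestrant (adjusted p 5.5e-04 and 1.1e-06). HJURP, the chaperone that delivers CENP-A to centromeres, gave 59.1, 64.6 and 63.9 CPM in DMSO, 18.4, 15.7 and 15.2 in abemaciclib, 6.18, 7.05 and 10.7 in fulvestrant and 1.68, 1.65 and 0.777 in the combination. Its log2 fold changes from DMSO were -1.92 ± 0.15, -2.95 ± 0.17 and -5.51 ± 0.23 in that order. The 4 groups of HJURP did not overlap. MIS18A and OIP5, subunits of the complex that licenses new CENP-A deposition, fell less. MIS18A measured 59.1, 69.6 and 65.9 CPM in DMSO, 39.8, 40.6 and 42.7 in abemaciclib, 22.0, 19.5 and 23.2 in fulvestrant and 14.9, 16.7 and 19.8 in the combination, and its fold changes were -0.67 ± 0.12, -1.59 ± 0.13 and -1.91 ± 0.13. The highest combination library of MIS18A slightly exceeded the lowest fulvestrant library. OIP5 fell from 42.6 ± 8.37 to 4.63 ± 1.03 CPM in the combination, but 63.2% of its exonic bases are shared with OIP5-AS1 on the opposite strand, and the sources used here do not give the strand setting of the counting.

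Of the 14 CCAN members, 12 fell with abemaciclib, 13 with fulvestrant and 12 with the combination, against 20.7%, 25.7% and 27.5% of all genes, and none rose against DMSO. Within this network the changes from DMSO in the combination ranged from -6.63 for CENPM to 0.26 for CENPC. CENPC, which bridges CENP-A nucleosomes and the MIS12 complex, measured 36.5, 32.7 and 30.6 CPM in DMSO, 27.4, 24.5 and 27.5 in abemaciclib, 34.8, 35.5 and 39.2 in fulvestrant and 45.7, 39.1 and 34.2 in the combination. Its abemaciclib libraries were the lowest of all and the other 3 groups overlapped. No change from DMSO passed the threshold (adjusted p 0.0543, 0.367 and 0.0895), but CENPC was higher with fulvestrant than with abemaciclib (0.47 ± 0.13, adjusted p 0.00893) and higher with the combination than with abemaciclib (0.58 ± 0.13, adjusted p 9.8e-04). Without abemaciclib replicate 2 the first of these gave 0.41 with an adjusted p of 0.0507, and without combination replicate 3 CENPC was higher in the combination than in DMSO (0.36, adjusted p 0.0298).

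CENPX, CENPT and CENPW are histone-fold proteins of 1 complex, and their transcripts diverged. For CENPX the values were 122, 114 and 115 CPM in DMSO, 97.2, 87.2 and 82.1 in abemaciclib, 92.7, 93.6 and 97.8 in fulvestrant and 89.5, 104 and 117 in the combination. CENPX fell by a small amount with abemaciclib (-0.39 ± 0.10, adjusted p 0.00171) and fulvestrant (-0.30 ± 0.10, adjusted p 0.0103), and its highest combination library lay within the DMSO range. CENPT was low throughout, at 6.53, 6.84 and 7.65 CPM in DMSO, 6.40, 5.52 and 5.81 in abemaciclib, 4.45, 4.80 and 3.19 in fulvestrant and 5.53, 3.10 and 3.50 in the combination. It passed the threshold with fulvestrant (-0.77 ± 0.28, adjusted p 0.0244) and the combination (-0.82 ± 0.28, adjusted p 0.0140), though neither call held with DESeq2 (adjusted p 0.0790 and 0.0501). Exons of CENPT, with 280 reads over all libraries, overlap NUTF2 (27441 reads) and THAP11 (3085 reads) on the opposite strand. The overlaps cover 2.9% and 6.7% of its exonic bases, so some of its reads may not be separable. CENPW, by contrast, gave 24.9, 32.3 and 33.9 CPM in DMSO, 13.6, 15.01 and 13.9 in abemaciclib, 2.72, 5.36 and 3.87 in fulvestrant and 2.89, 3.31 and 1.94 in the combination. Its fold changes from DMSO were -1.11 ± 0.17, -2.95 ± 0.22 and -3.50 ± 0.23, and among members it had the largest difference between fulvestrant and abemaciclib (-1.84 ± 0.24, adjusted p 1.2e-06). The fulvestrant and combination libraries of CENPW overlapped. CENPS, the partner of CENPX and no member of the list, went from 29.7 ± 6.26 CPM in DMSO to 13.7 ± 1.37, 8.74 ± 1.91 and 7.08 ± 1.48.

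Among the remaining CCAN modules the transcripts fell by unequal amounts. Against DMSO the combination changed CENPN by -4.60 and CENPL by -2.04, and CENPM by -6.63 and CENPH by -2.39. CENPL and CENPN, of which CENP-N contacts the CENP-A nucleosome, summed to 85.2 ± 3.99 CPM in DMSO (SD, n = 3) and 11.1 ± 1.56 in the combination. The 4 genes of the CENP-H/I/K/M module, which sits centrally in the network, summed to 141 ± 12.3 CPM in DMSO and 11.3 ± 2.46 in the combination. CENPM was the steepest of these, with 51.5 ± 5.12 CPM in DMSO, 10.2 ± 1.27 under abemaciclib, 4.86 ± 1.97 under fulvestrant and 0.492 ± 0.0851 under both drugs. CENPI and CENPK reached 0.642 ± 0.0720 and 0.858 ± 0.565 CPM in the combination, and each of CENPI, CENPK and CENPM had 20 reads or fewer over those 3 libraries. CENPH, of the same module, kept 11.5, 7.86 and 8.54 CPM in the combination, close to the 10.6, 9.87 and 10.3 CPM of fulvestrant and below the 26.8, 22.1 and 20.2 CPM of abemaciclib and the 41.0, 49.2 and 54.2 CPM of DMSO. CENPL likewise measured 38.3, 36.7 and 39.3 CPM in DMSO, 18.4, 17.2 and 12.6 in abemaciclib, 12.1, 7.62 and 9.57 in fulvestrant and 8.90, 7.65 and 11.1 in the combination, with the last pair of groups overlapping.

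The CENP-O/P/Q/U module, a docking site for the kinase PLK1, was led by CENPU. CENPU measured 195, 158 and 159 CPM in DMSO, 27.8, 34.4 and 36.1 in abemaciclib, 18.8, 23.7 and 26.4 in fulvestrant and 10.1, 9.72 and 7.57 in the combination. No groups of CENPU overlapped, and its change with abemaciclib, -2.38 ± 0.12 (adjusted p 1.4e-14), was the most negative of the CCAN. The other members of the module fell too. CENPQ gave 59.7, 48.5 and 51.1 CPM in DMSO, 17.4, 21.0 and 26.3 in abemaciclib, 11.9, 11.8 and 15.3 in fulvestrant and 10.8, 8.68 and 10.9 in the combination. CENPP gave 12.2, 16.3 and 19.8 CPM in DMSO, 7.80, 7.95 and 8.84 in abemaciclib, 2.72, 2.54 and 2.51 in fulvestrant and 2.89, 2.27 and 3.50 in the combination. In both genes the fulvestrant and combination libraries stood below every abemaciclib library, and the changes between those 2 drug groups were -0.37 ± 0.20 and 0.16 ± 0.35 (adjusted p 0.483 and 0.909). CENPO changed by -1.21 ± 0.15, -2.04 ± 0.17 and -2.54 ± 0.18 with abemaciclib, fulvestrant and the combination. Exons of CENPP and CENPO overlap IPPK and ADCY3 on the opposite strand over 39.9% and 27.0% of their bases, so reads of these pairs may not be separable.

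The KMN network held the sharpest contrast among the members. Its NDC80 complex, the main microtubule coupler, fell further than any other complex examined, while the MIS12 complex on which it stands stayed near the DMSO level. The 4 NDC80 subunits together gave 235 ± 4.92 CPM in DMSO (SD, n = 3), 38.87 ± 2.20 under abemaciclib, 16.7 ± 2.97 under fulvestrant and 1.39 ± 0.483 under both drugs, which is 0.593% of DMSO. The 4 MIS12 subunits gave 194 ± 1.23, 157 ± 6.70, 165 ± 2.69 and 161 ± 8.95 CPM, and the combination kept 83.0% of DMSO. The lowest DMSO sum of the NDC80 complex was 229 CPM and its highest combination sum 1.94 CPM, whereas the MIS12 sums ran from 193 to 195 CPM in DMSO and from 152 to 169 CPM in the combination. The plot of these 8 subunits by library shows the contrast.

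**Figure D3:**
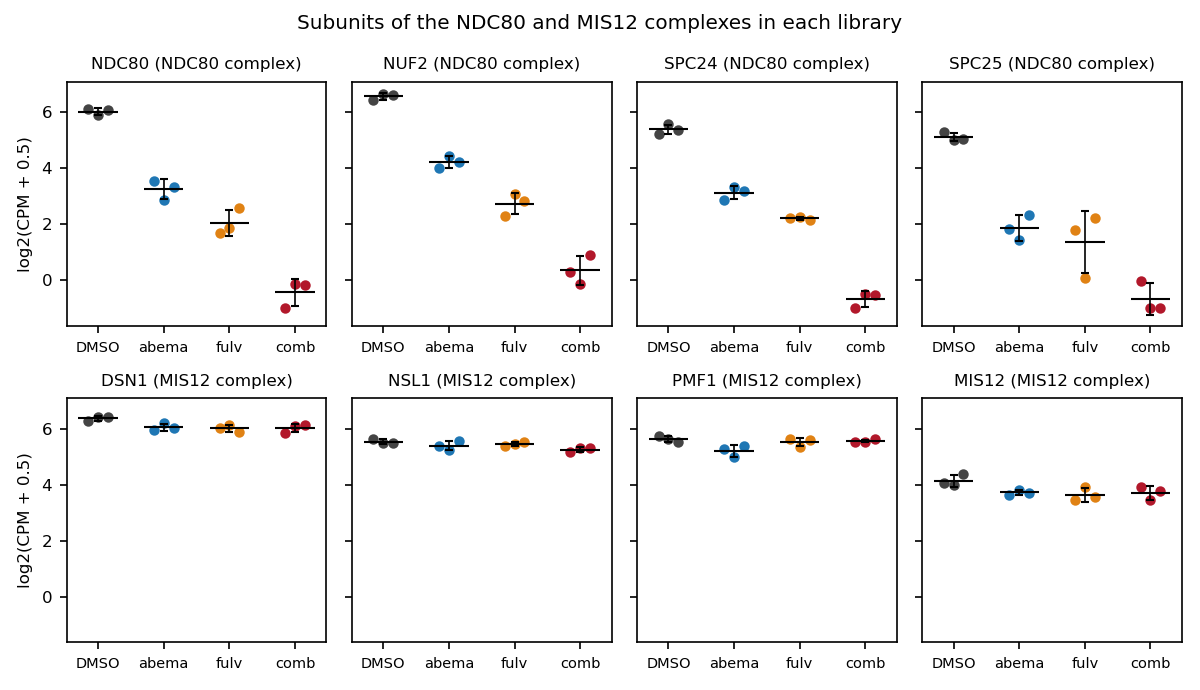
Log2(CPM + 0.5) of the 4 NDC80 complex genes (top) and the 4 MIS12 complex genes (bottom) in each library of DMSO, abemaciclib (abema), fulvestrant (fulv) and the combination (comb); points are libraries, horizontal lines the mean and bars the SD (n = 3). The means of the NDC80 complex genes step down at each group to the level of 0 to a few reads, while the MIS12 complex genes remain between 10.3 and 85.0 CPM throughout. For SPC25 the abemaciclib and fulvestrant libraries overlap.

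NDC80, which encodes the microtubule-binding subunit HEC1, measured 68.0, 58.3 and 66.6 CPM in DMSO, 11.2, 6.84 and 9.60 in abemaciclib, 2.72, 3.10 and 5.47 in fulvestrant and 0, 0.414 and 0.388 in the combination. NUF2, its dimer partner, gave 85.5, 101 and 98.0 CPM in DMSO, 15.4, 21.0 and 17.9 in abemaciclib, 4.45, 7.90 and 6.61 in fulvestrant and 0.722, 0.414 and 1.36 in the combination. Neither gene had overlapping groups, and the log2 fold changes with fulvestrant, -4.06 ± 0.21 for NDC80 and -3.91 ± 0.17 for NUF2, were the most negative of all members. SPC24 and SPC25 form the other end of the complex, which docks on the inner kinetochore. SPC24 measured 37.1, 46.6 and 40.7 CPM in DMSO, 6.80, 9.49 and 8.59 in abemaciclib, 4.20, 4.23 and 3.87 in fulvestrant and 0, 0.207 and 0.194 in the combination. With 2 reads left over the combination libraries, SPC24 was 298-fold lower by read counts (95% exact counting interval 82.0 to 2464). SPC25 measured 38.6, 31.9 and 32.7 CPM in DMSO, 3.00, 2.21 and 4.55 in abemaciclib, 2.96, 0.564 and 4.10 in fulvestrant and 0.481, 0 and 0 in the combination, where 2 reads remained, and was 239-fold lower (interval 65.9 to 1983). SPC25 had the largest change with abemaciclib of any member (-3.41 ± 0.29, adjusted p 2.3e-09). Its abemaciclib and fulvestrant libraries overlapped, and the difference between those groups was -0.27 ± 0.44 with an adjusted p of 0.703.

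KNL1, the scaffold that recruits BUB1 and BUBR1, followed the NDC80 complex. It measured 123, 118 and 105 CPM in DMSO, 32.0, 35.3 and 37.1 in abemaciclib, 14.3, 11.0 and 15.5 in fulvestrant and 2.65, 2.48 and 1.75 in the combination, with no overlap between groups. ZWINT, the KNL1 partner that links to the RZZ complex, changed by -1.33 ± 0.14, -2.62 ± 0.16 and -4.25 ± 0.19 with abemaciclib, fulvestrant and both.

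In the MIS12 complex, changes were under 2-fold in each drug group for every subunit. DSN1, which contacts CENP-C, measured 76.3, 84.8 and 85.0 CPM in DMSO, 61.0, 72.6 and 63.9 in abemaciclib, 64.7, 69.4 and 58.1 in fulvestrant and 56.8, 67.4 and 68.7 in the combination. All its drug libraries lay below DMSO and the drug groups overlapped, with changes of -0.32 ± 0.10, -0.36 ± 0.10 and -0.35 ± 0.10 (adjusted p 0.0142, 0.00495 and 0.00506). NSL1 measured 49.0, 44.3 and 44.4 CPM in DMSO, 41.0, 37.3 and 46.7 in abemaciclib, 41.3, 43.2 and 45.6 in fulvestrant and 34.9, 38.87 and 39.0 in the combination. PMF1 measured 53.1, 48.5 and 45.5 CPM in DMSO, 37.8, 30.9 and 41.2 in abemaciclib, 49.4, 40.3 and 47.4 in fulvestrant and 45.5, 45.9 and 48.4 in the combination. Of its exonic bases 23.3% are shared with PMF1-BGLAP on the same strand, which had 0 reads, so reads of this pair may not be separable. PMF1 was lowest in abemaciclib (-0.42 ± 0.12, adjusted p 0.00692) and was higher in fulvestrant and in the combination than there (0.33 ± 0.12 and 0.35 ± 0.12, adjusted p 0.0459 and 0.0257), 2 calls that DESeq2 did not make (adjusted p 0.0949 and 0.0677) and that were lost without abemaciclib replicate 2 (0.22 and 0.24, adjusted p 0.266 and 0.182). The subunit MIS12 measured 16.0, 15.4 and 20.5 CPM in DMSO, 12.0, 13.5 and 12.6 in abemaciclib, 10.4, 14.7 and 11.2 in fulvestrant and 14.4, 10.3 and 13.2 in the combination, without separation of the drug groups. Small falls of NSL1 (-0.28), MIS12 (-0.46) and ZW10 (-0.33) in the combination passed the threshold but not with DESeq2 (adjusted p 0.0740, 0.0932 and 0.0880).

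The SKA complex, which helps kinetochores hold on to shortening microtubules, contained both kinds of subunit. SKA1 measured 38.0, 34.0 and 34.5 CPM in DMSO, 5.80, 5.74 and 5.56 in abemaciclib, 2.47, 4.51 and 1.37 in fulvestrant and 0.241, 0.207 and 0 in the combination. It kept 2 reads over the combination libraries, 249-fold lower (95% exact counting interval 68.5 to 2061). SKA3 also fell, with changes of -1.69 ± 0.14, -2.84 ± 0.17 and -4.69 ± 0.20. SKA2 measured 134, 141 and 148 CPM in DMSO, 64.2, 69.1 and 76.8 in abemaciclib, 82.5, 92.5 and 62.2 in fulvestrant and 64.5, 63.3 and 70.5 in the combination. The drug groups of SKA2 overlapped one another and lay below DMSO, with changes of -1.01 ± 0.11, -0.84 ± 0.11 and -1.09 ± 0.11, and its mean in the combination was 46.8% of DMSO.

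On the outermost layer, CENPF, a large corona protein that accumulates in G2, gave the most reads of all members in DMSO. It measured 703, 553 and 492 CPM in DMSO, 143, 136 and 159 in abemaciclib, 54.9, 53.9 and 63.8 in fulvestrant and 17.6, 21.7 and 14.95 in the combination. The groups did not overlap, and the share of CENPF in all member reads went from 19.7 ± 2.92% in DMSO (SD, n = 3) to 2.78 ± 0.574% in the combination. The RZZ complex recruits dynein and the checkpoint proteins MAD1 and MAD2 to unattached kinetochores. ZW10, a subunit that also acts in membrane traffic between divisions, measured 30.6, 31.2 and 33.9 CPM in DMSO, 30.01, 25.2 and 25.5 in abemaciclib, 26.9, 20.03 and 22.3 in fulvestrant and 24.3, 23.2 and 28.3 in the combination. ZWILCH changed by -0.87 ± 0.11, -1.90 ± 0.12 and -2.33 ± 0.12 with abemaciclib, fulvestrant and the combination. KNTC1, the third subunit, also called ROD, was low and scattered, at 6.23, 7.98 and 8.47 CPM in DMSO, 2.60, 0.883 and 1.77 in abemaciclib, 0.741, 2.54 and 1.37 in fulvestrant and 1.44, 1.24 and 1.55 in the combination. Its DMSO libraries were above all drug libraries and the 3 drug groups overlapped.

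Both shugoshins, which shield centromeric cohesion and recruit regulators of attachment, fell. SGO1 measured 90.8, 92.2 and 85.0 CPM in DMSO, 22.6, 20.5 and 25.8 in abemaciclib, 4.94, 4.23 and 11.2 in fulvestrant and 0.481, 0.620 and 1.36 in the combination. SGO2 measured 94.7, 81.9 and 78.3 CPM in DMSO, 37.8, 40.4 and 34.9 in abemaciclib, 15.3, 12.4 and 14.8 in fulvestrant and 10.1, 10.8 and 7.96 in the combination. The groups were separate for both genes, but the combination took SGO1 to 0.918% of DMSO and SGO2 to 11.3%. Against fulvestrant alone the change of SGO1 in the combination was -2.997 ± 0.43 (adjusted p 7.9e-05), and that of SGO2 was -0.57 ± 0.17 (adjusted p 0.102).

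Of the spindle checkpoint genes, BUB1, BUB1B, MAD2L1 and TTK fell together while BUB3 was nearly level. The 4 that fell summed to 196 ± 7.25 CPM in DMSO (SD, n = 3), 65.4 ± 7.30 under abemaciclib, 21.3 ± 0.982 under fulvestrant and 5.67 ± 0.387 under both drugs, 34.5-fold below DMSO. BUB1, the kinase that marks centromeric histone H2A, measured 49.3, 47.5 and 47.1 CPM in DMSO, 15.4, 12.1 and 19.7 in abemaciclib, 5.93, 3.95 and 3.87 in fulvestrant and 1.44, 0.620 and 0.388 in the combination. BUB1 libraries did not overlap between groups. TTK, the kinase MPS1 that starts checkpoint signalling, measured 22.9, 16.5 and 16.3 CPM in DMSO, 7.20, 6.40 and 4.04 in abemaciclib, 1.98, 2.82 and 2.73 in fulvestrant and 0.722, 0.620 and 0.194 in the combination, again with no overlap. BUB1B, which encodes BUBR1 of the mitotic checkpoint complex, and MAD2L1, the MAD2 that binds CDC20, changed by -5.61 ± 0.21 and -4.39 ± 0.18 in the combination. BUB3, the WD-repeat partner of BUB1 and BUBR1, measured 144, 142 and 151 CPM in DMSO, 119, 119 and 122 in abemaciclib, 121, 124 and 107 in fulvestrant and 111, 113 and 114 in the combination. All its drug libraries lay below DMSO by a small margin (-0.28 ± 0.08, -0.31 ± 0.08 and -0.37 ± 0.08, adjusted p 0.00660, 0.00214 and 3.1e-04). With the other members falling, BUB3 rose from 4.94 ± 0.295% to 17.3 ± 0.293% of member reads. MAD1L1, the MAD2 partner, had 0 of 53170889 reads over all libraries, which allows a mean level of up to 0.0564 CPM by counting error alone. In GENCODE v44 another gene on the same strand shares 43.2% of its exonic bases, and its level cannot be judged from this table. The study counted on GENCODE v35, which was not used here, so the overlap in that release was not examined.

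The next comparisons asked what each drug added to the other. Adding fulvestrant to abemaciclib lowered 31 of 42 members and raised 2, CENPC and PMF1 (background 17.7% lower and 15.9% higher), with a median of -2.34. Adding abemaciclib to fulvestrant lowered 20 members and raised 0, with a median of -0.89, where 1.63% of all genes were called lower and 0.297% higher. At an unadjusted p under 0.05 this second comparison had 27 lower and 0 higher, and DESeq2 also called 0 higher. The share of all genes at that unadjusted threshold was not counted. Some members passed the read filter through DMSO or abemaciclib and had few reads in both groups compared here. Fitting only these 2 groups tested 36 members with a median of -0.56, and requiring at least 10 reads in every library left 23 members, 4 of them lower, with a median of -0.25. The second filter removes members that fell to few reads in the combination, such as SPC24, CENPA, SKA1 and SPC25. Its smaller count and median are therefore partly fixed by the filter, and the share of all genes called under it was not counted. All 20 members lowered in the full fit belonged to the cycle-dependent class. Of the 12 constitutive members tested none passed, in a comparison where only 1.63% of all genes were called lower. Without fulvestrant replicate 3 the second comparison lowered 22 members, CENPI among them (-2.27, adjusted p 0.00560). Both comparisons share the combination libraries.

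The largest falls on top of fulvestrant were found in SPC24, CENPA, SKA1 and SPC25. SPC24 changed by -4.60 ± 0.55 against fulvestrant (adjusted p 1.9e-06), CENPA by -4.18 ± 0.93 (adjusted p 0.00980) and SKA1 by -3.999 ± 0.67 (adjusted p 3.7e-04). By read counts these were 28.9-fold lower (95% exact counting interval 7.59 to 246), 24.8-fold lower (3.99 to 1025) and 18.9-fold lower (4.82 to 163). SPC25 changed by -3.98 ± 0.83 (adjusted p 0.00733), and its read counts, fold and interval were those of SKA1. CENPA lost its call when fulvestrant replicate 2 or combination replicate 2 or 3 was left out (adjusted p 0.108, 0.0725 and 0.0882), and SPC25 when combination replicate 2 or 3 was (adjusted p 0.0597 and 0.0712). For 27 of 43 members every combination library was below every fulvestrant library, as was true of 7.44% of all genes. Against abemaciclib the same held for 32 members (24.7% of all genes), with SPC24 at -5.61 ± 0.46, CENPA at -5.38 ± 0.76 and SKA1 at -5.08 ± 0.55.

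The single agents also differed from each other. Fulvestrant at 5 nM gave lower levels than abemaciclib at 100 nM in 29 of 42 members and higher levels in 2, CENPC and PMF1 (background 15.5% lower and 13.4% higher), with a median of -1.06. The largest differences were those of CENPW, BUB1 (-1.76 ± 0.24, adjusted p 1.5e-06) and SGO1 (-1.71 ± 0.23, adjusted p 3.7e-06). For 29 of 43 members the fulvestrant libraries all lay below the abemaciclib libraries, against 21.0% of all genes. Without fulvestrant replicate 3 the counts were 27 lower and 2 higher, SKA1 no longer passed (-0.73, adjusted p 0.0963) and SKA2 was higher with fulvestrant (0.32, adjusted p 0.0149). Only 1 dose of each drug was measured, so this compares those doses and not the drugs in general.

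Whether the effect of abemaciclib depended on fulvestrant was asked by the interaction, the log2 change with abemaciclib in the presence of fulvestrant minus that in its absence. A positive value means a smaller fall when fulvestrant was present, or no fall, as in the estimates of CENPX and CENPP (0.13 and 0.16 on top of fulvestrant). Of 42 members, 9 had a positive and 2 a negative interaction past the threshold (background 9.49% and 11.6%), with a median of 0.30. The positive calls included 6 CCAN genes: CENPL (1.14 ± 0.27, adjusted p 0.00280), CENPU (1.04 ± 0.22, 0.00115), CENPQ (0.93 ± 0.25, 0.00743), CENPH (0.91 ± 0.25, 0.00998), CENPP (1.16 ± 0.41, 0.0438) and CENPX (0.52 ± 0.14, 0.00643). The others were SKA2 (0.76 ± 0.16, adjusted p 8.7e-04), KNTC1 (1.999 ± 0.64, 0.0261) and SGO2 (0.59 ± 0.21, 0.0456). Except for CENPU, none of the 9 passed the threshold in the combination against fulvestrant.

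The negative calls were SPC24 (-2.27 ± 0.68, adjusted p 0.0180) and KNL1 (-0.85 ± 0.27, 0.0251), both of the KMN network. KNL1 changed by -1.73 ± 0.12 with abemaciclib alone and by -2.58 ± 0.23 on top of fulvestrant, and SPC24 by -2.33 and -4.60. DESeq2 did not call SPC24, KNL1, CENPP, KNTC1 or SGO2 (adjusted p 0.0930, 0.0535, 0.106, 0.0563 and 0.0927), and it gave 0 negative calls in place of 2. At an unadjusted p under 0.05 the edgeR test had 14 positive and 5 negative members, a threshold at which the share of all genes was not counted. After adjustment and without fulvestrant replicate 3 it called 9 and 3. The positive calls for CENPL, CENPU, CENPQ, CENPX and SKA2 held with DESeq2 and with each library left out in turn, and CENPH was lost only without combination replicate 1 (0.73, adjusted p 0.0548). Without that library there were 5 positive calls, and CENPA gave a negative interaction (-4.56, adjusted p 0.0447).

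**Figure D4:**
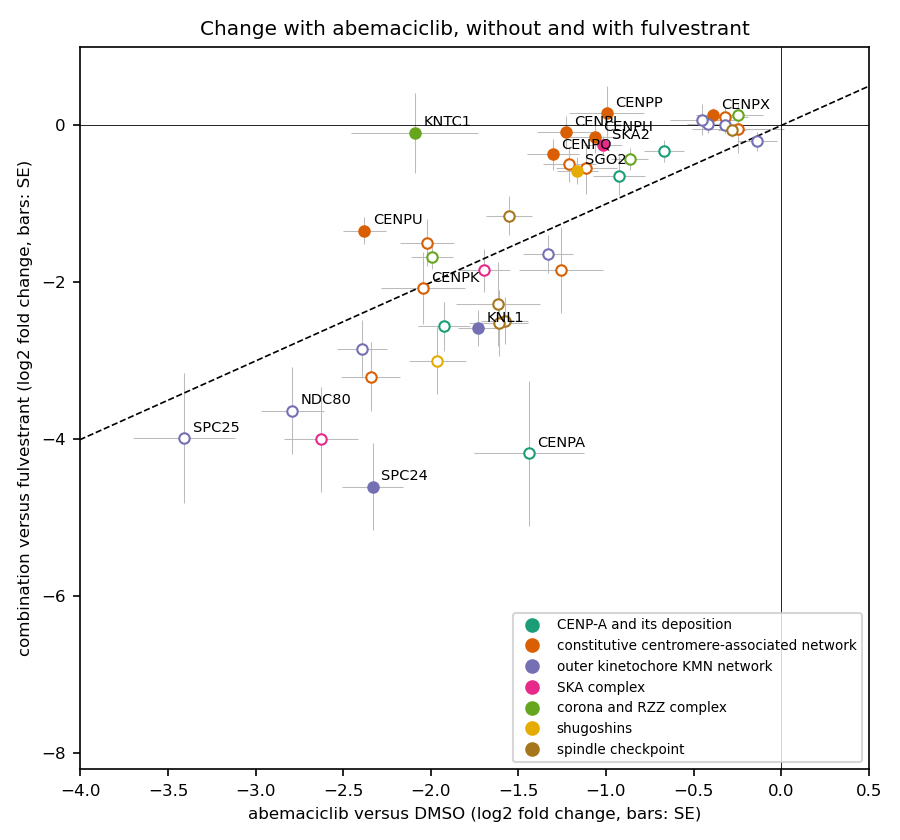
Log2 fold change of each member with abemaciclib alone (x axis, against DMSO) and on top of fulvestrant (y axis, combination against fulvestrant), with SE bars and colours for the assemblies; filled points passed the interaction test and the dashed line marks equal change. CENPL, CENPH, CENPP, CENPQ, SKA2 and KNTC1 lie near 0 on the y axis, and SPC24 lies furthest below the line among the filled points.

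For comparison, a list of 6 MCM helicase genes, which load at replication origins, had 6 positive interactions with a median of 1.11, and its median change on top of fulvestrant was -0.31. Over all genes tested, 9.49% of interactions were called positive and 11.6% negative. A list of 6 genes of mitotic entry and exit (CCNB1, CCNB2, CDK1, AURKA, PLK1 and CDC20) had 3 negative interactions and 1 positive, and a median of -2.89 on top of fulvestrant. These lists, like the members, were fixed by hand with earlier results known, and the difference between them was not tested.

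A wider list of 20 genes that act with the kinetochore, such as the chromosomal passenger complex and checkpoint regulators, gave counts of the same kind. Of its 19 genes tested, 15 fell with abemaciclib, 16 with fulvestrant and 16 with the combination, and 0 rose in each (median -1.18, -2.14 and -2.23), where 20.7%, 25.7% and 27.5% of all genes were called lower and 20.5%, 25.3% and 27.7% higher; CENPV had too few reads to test. AURKB, the kinase of the passenger complex that corrects faulty attachments, went from 81.3 ± 17.5 to 9.99 ± 0.365 CPM with abemaciclib (-3.03 ± 0.17), and BIRC5, its survivin subunit, from 214 ± 20.9 to 40.9 ± 1.88 CPM (-2.39 ± 0.11). Between abemaciclib and the combination, PLK1, the mitotic kinase, changed by -5.47 ± 0.26 and BIRC5 by -5.43 ± 0.24. No gene of the wider list rose in either comparison.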

How the data were processed

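For all 12 libraries the file deposited by the authors holds whole-number counts of reads for each gene symbol. Per the submitters' processing notes and the study's methods, reads were aligned to hg38 (GRCh38) with STAR and counted with featureCounts 2.0.1. Strand use in counting is not given in the sources used here. Of 60656 table entries, 44 had no name and 0 reads and were left out. No molecular identifiers are named, so intervals and limits cover counting error only. The study's methods call the replicates independent biological replicates, and replicate pairs differed by more than sampling noise (chi-square of 1.87 to 15.3 per gene).

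These were tested with edgeR 4.0.16 under R 4.3.3. Genes passing filterByExpr (minimum count 10, minimum total 15) were kept, libraries were scaled by TMM, and 1 robust quasi-likelihood model with 4 group means was fitted to all 12 libraries (biological coefficient of variation 0.0918). P values were adjusted by the Benjamini-Hochberg method over 11803 genes, with a threshold of 0.05. SE values were derived from the F statistic and the log2 fold change and are approximate where few reads remained. Groups with 1 to 3 reads are given as ratios of reads with an exact binomial counting interval. The study's own test, DESeq2, was run in version 1.42.0 as an alternative, beside other scalings, filters and fits and each library left out in turn.

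Members, classes, lists and motifs were chosen with earlier results of these data known. Values in every library are given, within each assembly, for the member with the highest mean and that with the most negative change under abemaciclib, for members within 2-fold of DMSO in every drug group, for those past the threshold against the majority, for the 3 with the largest change past it per comparison, and for each interaction call. Of the wider list, the 2 most negative and 2 most positive genes past the threshold in 2 comparisons are named. Tested on simulated counts, the pipeline recovered 189 of 200 genes changed 2-fold between DMSO and abemaciclib among 11365 tested (9 false calls) and 140 of 200 interactions (6 false calls). The simulation changed no gene with few expected reads in DMSO and gave fulvestrant alone no effect. It also changed fewer genes than were called in the data, so these rates do not cover members with few reads. Gene overlaps are from GENCODE v44 on GRCh38, and promoters from RefSeq on GRCh38.p14.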

Additional observations from a re-analysis of the deposited data

Results flagged for a closer look

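The change with abemaciclib differed with and without fulvestrant, by the interaction term of the edgeR model, in 11 of 42 members. These were 9 positive and 2 negative calls, where 9.49% and 11.6% of all genes tested were called. The difference on the log2 scale was 0.91 for CENPH, 1.14 for CENPL, 1.16 for CENPP, 0.93 for CENPQ, 1.04 for CENPU and 0.52 for CENPX of the inner kinetochore, 0.76 for SKA2, 2.00 for KNTC1 and 0.59 for SGO2. It was -2.27 for SPC24 and -0.85 for KNL1 of the outer kinetochore, where the fall was larger in the presence of fulvestrant. SPC24 had 2 reads over the combination libraries and KNTC1 had 20 or fewer, so both values rest on few reads. DESeq2 did not call SPC24, KNL1, CENPP, KNTC1 or SGO2 (adjusted p 0.0930, 0.0535, 0.106, 0.0563 and 0.0927), which left 0 negative calls. The call of CENPP was also lost with the replicate number as a block (adjusted p 0.0501), and that of CENPH without combination replicate 1 (adjusted p 0.0548).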

How the results depend on the processing

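Among the members each fit tested, none changed sign with DESeq2, DESeq2 size factors, upper-quartile factors, other filters or the replicate block in the 7 comparisons, nor with only the groups compared in the 6 that this fit can make (36 to 42 members each). When single libraries were left out, 20 gene results, none of them past the threshold, changed sign. For each comparison only libraries of the groups in it were left out. Requiring at least 10 counts in every library left 23 members and gave 19, 20 and 20 lower against DMSO with abemaciclib, fulvestrant and the combination (medians -0.92, -1.91 and -2.05), 13 lower for the combination against abemaciclib (-1.09), 4 against fulvestrant (-0.25), 13 lower and 1 higher for fulvestrant against abemaciclib (-0.72), and 0 negative interactions (0.44). That filter removes members that fell to few reads in the combination, so its smaller counts and medians are partly fixed by it. Requiring 2-fold left 0 higher for the combination or fulvestrant against abemaciclib and 4 positive and 1 negative interactions. DESeq2 gave 1 higher in each of those 2 comparisons and 0 negative interactions. With no filter, or only the groups compared, 1 member was higher for fulvestrant against abemaciclib, and the latter fit gave a median of -0.56 for the combination against fulvestrant, over 36 members.

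Leaving out each library in turn gave medians of -1.37 to -1.29 for abemaciclib, -2.72 to -2.57 for fulvestrant and -3.94 to -3.68 for the combination against DMSO (0 to 1 higher and 35 to 37 lower in the last, where the full fit had 39), -2.42 to -2.15 for the combination against abemaciclib (1 to 3 higher), -0.98 to -0.88 against fulvestrant (16 to 22 lower), 0 to 2 higher for fulvestrant against abemaciclib, and 5 to 9 positive and 1 to 3 negative interactions. The genes that changed sign were, for the combination against fulvestrant, CENPC (-0.0017 to 0.20), CENPL (-0.26 to 0.088), CENPP (-0.021 to 0.31), CENPT (-0.31 to 0.11), DSN1 (-0.054 to 0.088), KNTC1 (-0.42 to 0.40), MIS12 (-0.026 to 0.23) and PMF1 (-0.054 to 0.078); against abemaciclib, DSN1 (-0.086 to 0.051), KNTC1 (-0.64 to 0.12) and MIS12 (-0.10 to 0.12); for fulvestrant against abemaciclib, BUB3 (-0.074 to 0.030), DSN1 (-0.10 to 0.033), KNTC1 (-0.72 to 0.21), MIS12 (-0.23 to 0.018), NSL1 (-0.015 to 0.14) and SPC25 (-0.79 to 0.15); and for the interaction, CENPK (-0.37 to 0.42), CENPT (-0.071 to 0.35) and NSL1 (-0.14 to 0.018).

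Replicate numbers did not pair the libraries: deviations of same-numbered libraries correlated at -0.215 to 0.119, and 5 of 12 libraries matched best with their own number. With the replicate number as a block, 293 gene results kept their call and CENPP lost its interaction call (1.12, adjusted p 0.0501). Beyond these, calls near the threshold, most often for CENPA, CENPP, CENPT, MIS12, NSL1, PMF1, ZW10, KNTC1 and SGO2, depended on the fit or on single libraries, and the cause was not tested. Depth limits the 15 members with 20 reads or fewer over the combination libraries.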
